A study of Mus musculus with 10 samples.

Results

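Matrix proteases and their inhibitors were described here in single Bergmann glial cells of the mouse cerebellum. The members were chosen by gene symbol, with earlier results of these data known: all ADAM genes but Adam11, Adam22 and Adam23, the ADAMTS proteases and ADAMTS-like proteins, the matrix metalloproteinases (Mmp), the tissue inhibitors of metalloproteinases (Timp1 to Timp4) and Reck. Of 68 such genes with a probe set that named no other gene, 8 had none with a value in every cell and were left out. The members came to 60 genes on 107 probe sets, out of 17919 genes and 43608 probe sets that had a value in every cell. The 60 genes were 22 ADAM, 14 ADAMTS, 5 ADAMTS-like and 14 Mmp genes and 5 inhibitors.

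The study profiled 10 Bergmann glia, 5 at postnatal day 30 (P30) and 5 at postnatal day 6 (P6), each on its own Affymetrix mouse genome expression array. Cells of both ages came from the GFAP-GFP reporter line, in which the Gfap promoter drives GFP, and from the mid-sagittal part of the cerebellum. Cells were picked singly for strong GFP and a bushy shape with processes on one side, and their cDNA was kept only after marker genes had been checked. Neither an agent nor a further allele was given for either age, and no animal was named for any cell, so each age counted as 1 sample and no test was made. SD, ranges and overlap therefore describe the cells, and how many animals they stand for is unknown.

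Extracellular proteases remodel the matrix and release the outer parts of membrane proteins. ADAM proteins sit in the membrane, and those with an active protease domain act as sheddases of receptors, ligands and adhesion molecules, whereas ADAMTS proteases are secreted and several of them cut the chondroitin sulfate proteoglycans that fill the matrix of the brain. Mmp enzymes degrade collagens, laminins and other matrix proteins, and Timp proteins and the membrane-anchored Reck hold them in check. Bergmann glia span the cerebellar cortex, carry migrating granule cells early in postnatal life and anchor their endfeet in the basement membrane under the pia.

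The deposited value is a ratio to a divisor of its own for each probe set. It is no level, and it is given here as a log2 ratio. In 69.5% of the complete probe sets the median of the 5 P6 cells was exactly 1, and in 1.66% that of all 10 cells was, so the divisor was mostly the middle P6 cell and a P6 value of 0.00 often marks the cell that served as the divisor. Values below a ratio of 0.01 (log2 -6.64) had been raised to that floor. Probe sets of a gene were averaged, a difference is P30 minus P6, and a gene is called higher or lower where the difference passes 3-fold (1.58 on the log2 scale). Folds are ratios of geometric means over cells, and a fold against cells at the floor is a bound, written "at least". Levels of different genes could not be set against each other. Leaving out a cell can remove overlap between the ages but cannot create it. Where the cell left out was the only one that overlapped, the outcome was fixed in advance. The share of all genes without overlap after such a removal is not given.

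At P30, 8 of the 60 genes were more than 3-fold lower and 2 were more than 3-fold higher. The 8 lower genes were Timp1, Adamts12, Adamts1, Adamts7, Adamts15, Mmp10, Adamts5 and Adamts6, and the 2 higher genes were Mmp2 and Adamtsl4. By this rule 13.3% of the members were lower and 3.33% were higher, against 9.39% and 4.93% of all genes, so the totals lay near the background. By family the counts were as follows. Of the 14 ADAMTS genes, 6 were lower, none was higher and 12 had a difference below 0, with a median of -1.08, whereas no ADAM gene passed in either direction and the ADAM median was 0.33. Of all 17919 genes, 9387 had a difference below 0. The Mmp median was 0.40, the ADAMTS-like median -0.28 and the inhibitor median 0.30, beside 0.05 over all members and -0.05 over all genes. These medians and counts are descriptions, with no test.

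**Figure D1:**
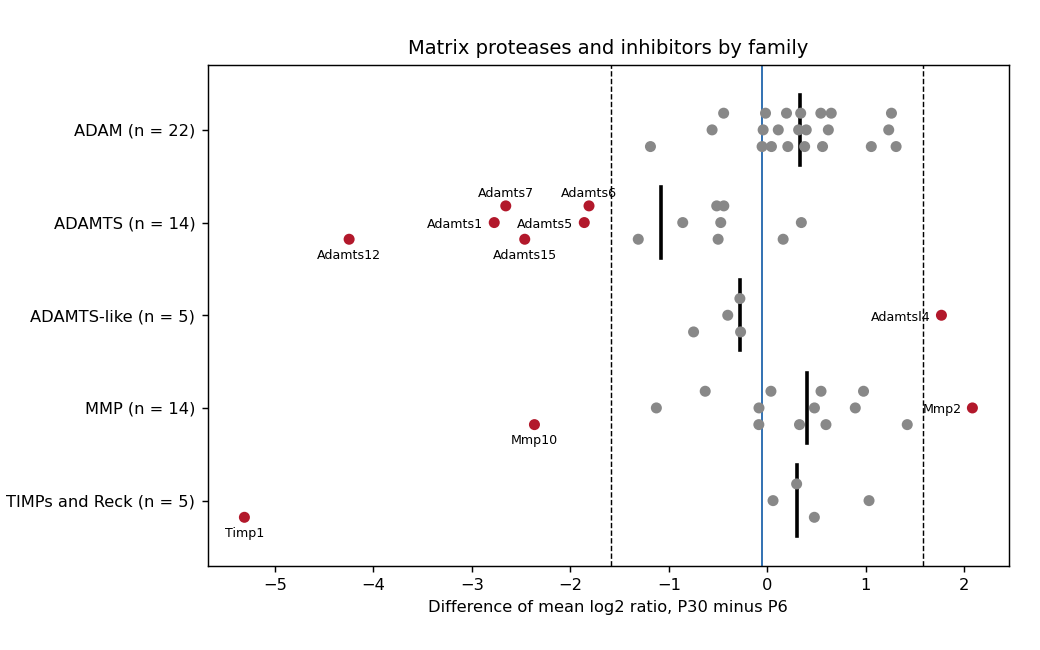
Differences of mean log2 ratio, P30 minus P6 (horizontal axis), of the 60 genes, 1 point per gene, in 5 families with the number of genes in each. Black bars are family medians, the blue line is the median of all genes (-0.05), dashed lines mark 3-fold, and red points with names are the 10 genes past it. The 6 named ADAMTS genes lie between -4.25 and -1.81, and no ADAM gene lies past a dashed line.

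The shift of the ADAMTS family was seen cell by cell. The median log2 ratio over the 14 ADAMTS genes was -1.86, -1.56, -2.04, -1.72 and -2.10 in P30 replicates 1 to 5, against -0.23, -0.80, -0.01, -0.26 and -0.24 in P6 replicates 1 to 5. Every P30 cell lay below every P6 cell, and the median over all genes was between -0.49 and -0.18 in P30 cells and between -0.20 and 0.00 in P6 cells. The other families overlapped between the ages. The ADAM median was 0.30, 0.31, 0.66, 0.68 and -0.71 in the P30 cells, against -0.05, 0.00, -0.11, 0.00 and -0.60 in the P6 cells, and the lowest value of each age was in its replicate 5. The Mmp median ranged from -0.74 to -0.02 at P30 and from -0.63 to 0.00 at P6, again lowest in replicate 5 of each age. The median over all genes was lowest in the same 2 cells, at -0.49 in P30 replicate 5 and -0.20 in P6 replicate 5. The low values there are thus not particular to these families.

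Some markers of other cell types were raised in several cells. The largest counts were of endothelial markers in P30 replicate 5 and of neuronal markers in P6 replicate 5. In P30 replicate 5, 8 of 15 endothelial and pericyte markers exceeded the median of the remaining 4 P30 cells by more than 3 log2 units, and the list median of P30 cells ranged from -0.69 to 2.06, highest in that cell, against -0.55 to 0.02 in P6 cells. In the same cell 3 of 14 neuronal markers were higher by that measure, and in P6 replicate 5 it was 6 of 14. Of the 15 endothelial and pericyte markers, 2 were also higher in P6 replicate 5, although their list median was the lowest of the P6 cells there. Of all genes, 5.58% in P30 replicate 5 and 6.33% in P6 replicate 5 lay that far out in either direction. The neuronal list median ranged from -0.74 to 1.32 in P30 cells and from -0.45 to 0.72 in P6 cells, highest in replicate 5 of each age. Of 12 oligodendrocyte markers 2 were higher and none was lower at P30, with a median difference of 0.75. By the measure within an age, 2 were higher in P30 replicate 5 and 1 each in P30 replicate 4 and P6 replicates 4 and 5. A single marker of 12 is near the share of all genes in either direction. That share was 7.65% in P30 replicate 4, 5.85% in P6 replicate 4 and 6.33% in P6 replicate 5. The oligodendrocyte list median was 0.75 in P30 replicate 5 and 0.70 in P30 replicate 4, against -0.38 to 0.00 in P6 cells. None of 12 microglial markers was higher in replicate 5 of either age. Their list median was lowest in these cells, at -0.99 in P30 replicate 5 and -0.34 in P6 replicate 5. Of 11 meningeal fibroblast markers, 1 was higher in P30 replicate 5 and none in P6 replicate 5. None of the 15 endothelial markers stood at the floor in any cell, whereas the neuronal and oligodendrocyte lists held floor values. Of 17 measured astroglial markers 3 were higher and none was lower at P30. Their list medians were -0.37 to 0.59 in P30 cells and -0.39 to 0.24 in P6 cells, lowest in replicate 5 of each age. Gfap, whose promoter drives the reporter, had a probe set at the floor in P6 replicates 2, 3 and 4. It had -5.43, -2.21 and -5.85 in those cells. A ratio has no level, so it cannot show whether a marker is expressed. Values without P30 or P6 replicate 5 stand beside the members whose calls they changed, and the part of other cell types in the results was not tested. Whether fewer transcripts of a gene or less of its RNA carried through amplification gave a low ratio cannot be told apart.

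The largest fall among the ADAMTS genes was that of Adamts12, a secreted protease that cuts cartilage oligomeric matrix protein and has an anti-angiogenic action in mice. Its log2 ratios were -4.66, -4.08, -4.59, -3.98 and -4.91 in P30 cells, against -2.83, 0.00, 1.62, 0.78 and -0.56 in P6 cells. All 5 P30 cells lay below all 5 P6 cells, a separation in that direction that 2.13% of all genes showed and no other member did. The means were -4.44 ± 0.40 at P30 and -0.20 ± 1.68 at P6 (SD, n = 5 cells each), a 19.0-fold lower ratio at P30, and the difference was -4.25, or -4.90 without P6 replicate 1. The P30 cells were close to each other, and the spread lay among the P6 cells. Adamts7, its nearest relative and also a protease of cartilage oligomeric matrix protein, had -1.75, -1.57, -0.92, -1.75 and -2.05 in P30 cells, against -2.09, 5.59, 3.52, -1.79 and 0.00 in P6 cells. The 6.30-fold lower mean at P30 came with 2 P6 cells inside the range of the P30 cells or below it and 2 far above. Without P6 replicate 2 its difference was -1.52 in place of -2.66 and no longer passed 3-fold. Without P6 replicate 1, 3 or 4 it was -3.44, -2.04 or -3.36.

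Adamts1, Adamts5, Adamts15, Adamts9, Adamts4 and Adamts20 cleave aggrecan, versican or related proteoglycans. Adamts1, which is induced by inflammation and injury in several tissues, had -1.48, -1.87, -2.48, -1.12 and 0.84 in P30 cells, against 4.05, 0.00, -0.73, -0.72 and 5.15 in P6 cells. P6 replicates 1 and 5 stood far above the other 3 P6 cells, and P30 replicate 5, the cell with the high endothelial markers, stood above the other 4 P30 cells. The mean was 6.84-fold lower at P30 (difference -2.77). Without P30 replicate 5 the difference was -3.29 and the cells of the 2 ages no longer overlapped, and without both cells numbered 5 it was -2.39, again with no overlap. Without P6 replicate 5, the highest P6 cell, it shrank to -1.87, and without P6 replicate 1 to -2.15. By medians over cells it did not pass 3-fold.

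Adamts5, a main aggrecanase of cartilage, had -2.25, -1.88, -2.33, -2.60 and -0.54 in P30 cells, against -0.06, -1.17, 0.69, 0.49 and -0.26 in P6 cells. The P30 cells were lower except P30 replicate 5, which lay above P6 replicate 2. The difference was -1.86, at least 3.63-fold lower at P30, with a probe set at the floor in 2 P30 cells. It rested on 1 of 3 probe sets, since their differences were -4.40, -1.01 and -0.16. Without P30 replicate 5 it was -2.20 and the ages did not overlap. Adamts15, an aggrecanase, had -3.54, -0.90, -2.37, -3.35 and -5.14 in P30 cells, against -0.89, -3.22, 0.68, 0.46 and 0.00 in P6 cells. All P30 cells lay below 4 of the 5 P6 cells, and the mean was 5.51-fold lower at P30 (difference -2.46). Without P6 replicate 2 the difference was -3.12 and the ages did not overlap, and without both cells numbered 5 it was -1.79.

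Adamts6, which acts on the microfibril and focal adhesion matrix in mammals, had -2.24, -5.05, -1.37, -2.52 and 0.21 in P30 cells, against 0.41, -0.62, 0.96, -1.92 and -0.75 in P6 cells. The ages overlapped, and the mean was at least 3.51-fold lower at P30 (difference -1.81). One of its 2 probe sets was at the floor in P30 replicate 2, and without that cell the difference was -1.10. It did not pass 3-fold then, nor without P6 replicate 3, at -1.47, whereas without P30 replicate 5 it was -2.41. Its probe sets differed by -2.71 and -0.91.

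Adamts9, a versican-cleaving protease also needed for cilia, was the ADAMTS gene just outside the 3-fold rule. It had -1.98, -0.89, -1.95, -1.17 and -3.94 in P30 cells, against -0.40, -1.50, -0.90, -0.36 and -0.21 in P6 cells, a difference of -1.31. The differences of its 3 probe sets ran from -2.57 to 0.15. Adamts4, an aggrecanase that is also made by cells of the oligodendrocyte line in mice, had 1.17, 0.66, 0.48, 0.72 and 0.07 in P30 cells, against 0.37, -0.06, 0.00, -0.16 and 2.15 in P6 cells, a difference of 0.16. P6 replicate 5 was alone in being high among the P6 cells, and without both cells numbered 5 every P30 cell lay above every P6 cell, with a difference of 0.72. Adamts20, a versicanase known for white belted coat patterns in mice, had -6.64, -2.12, -6.22, -6.52 and -6.64 in P30 cells, against 0.99 in P6 replicate 1 and -6.64 in the other 4 P6 cells. Cells stood at the floor at both ages, so its difference of -0.51 is no bound and gives no order.

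The remaining ADAMTS genes did not pass the 3-fold rule. Adamts3, which removes the propeptide of procollagen and activates Vegfc, had the highest difference of the family, 0.35, with floor values at both ages. Adamts10, 16, 18 and 19 had differences of -0.86, -0.47, -0.44 and -0.50. The probe sets of Adamts3, Adamts10, Adamts16 and Adamts18 had differences of opposite sign. In that order they ran from -0.89 to 1.58, -1.93 to 0.21, -1.82 to 0.88 and -0.86 to 0.28. Of the 6 lower ADAMTS genes, 4 were read from 1 probe set each, so no second complete probe set could be set beside Adamts12, Adamts1, Adamts7 or Adamts15. An incomplete probe set of Adamts12 had a value in P30 replicate 5 alone, at 1.11, and in no P6 cell.

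**Figure D2:**
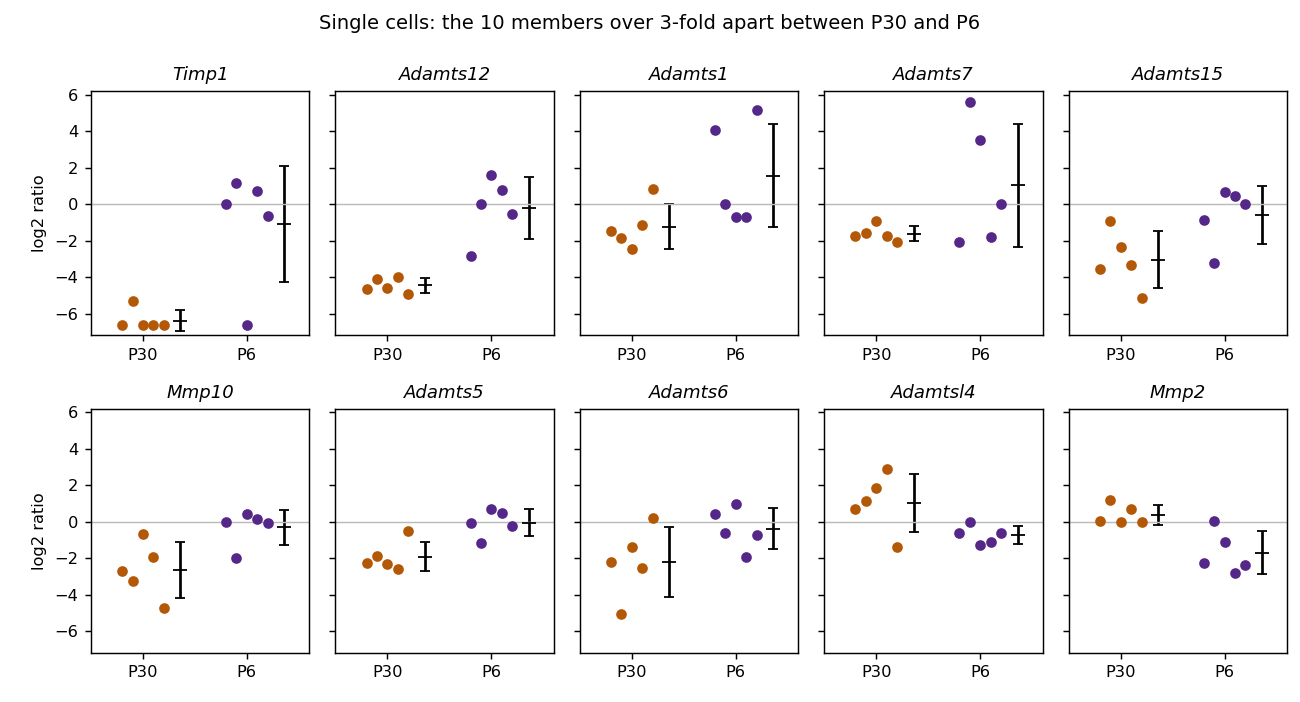
Log2 ratio (vertical axis) in each single cell for the 10 genes past 3-fold, with P30 cells (orange) left of P6 cells (purple) in each panel and replicates 1 to 5 from left to right; the black mark is the mean ± SD over 5 cells. Adamts12 is the 1 gene of the 10 whose 5 P30 cells all lie below all P6 cells, and the P30 values of Timp1 lie at or near -6.64.

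RefSeq promoter sequences (GRCm38.p6, 250 bases before to 50 after the annotated start) were matched to 36 of the 60 genes. They are shown for the lower ADAMTS genes that had one, so that the base composition and short motifs of the 2 can be compared. Adamts12 (chr15:11064523-11064822, plus strand) and Adamts1 (chr16:85803064-85803363, minus strand) are written 5′ to 3′ with motif matches in capitals. Searched on both strands were the GC box GGGCGG, the TATA box TATAAA, the CCAAT box CCAAT and the AP-1 site TGANTCA.
Adamts12: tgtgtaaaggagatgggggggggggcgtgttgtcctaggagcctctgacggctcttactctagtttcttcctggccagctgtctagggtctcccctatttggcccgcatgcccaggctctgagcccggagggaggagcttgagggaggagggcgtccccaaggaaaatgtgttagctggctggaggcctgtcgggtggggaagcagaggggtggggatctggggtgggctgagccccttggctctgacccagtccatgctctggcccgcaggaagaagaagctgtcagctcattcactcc
Adamts1: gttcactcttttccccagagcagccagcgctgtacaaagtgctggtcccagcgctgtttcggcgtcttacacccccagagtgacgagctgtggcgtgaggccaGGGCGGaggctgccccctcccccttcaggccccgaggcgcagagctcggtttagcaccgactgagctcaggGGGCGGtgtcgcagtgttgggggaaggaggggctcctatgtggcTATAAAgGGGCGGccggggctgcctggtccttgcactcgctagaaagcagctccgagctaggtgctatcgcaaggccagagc
The Adamts1 promoter held 3 GC boxes, the first bases of which lie at -147, -76 and -25 from the start, and a TATA box at -32. The Adamts12 promoter held none of the 4 motifs. Of 32851 promoters of this length, 35.7% held a GC box, 13.6% a TATA box, 37.4% a CCAAT box and 7.81% an AP-1 site. A match is a string of letters and was not tested as a site.

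Adamtsl4, a protein without protease activity that binds fibrillin microfibrils and supports the lens zonule, was the 1 ADAMTS-like gene to pass the rule. It had 0.72, 1.12, 1.87, 2.91 and -1.38 in P30 cells, against -0.61, 0.00, -1.27, -1.13 and -0.60 in P6 cells. Of the P30 cells, 4 lay above every P6 cell, and P30 replicate 5 lay below every one. The mean was 3.41-fold higher at P30 (difference 1.77), the gene just inside the rule on the higher side. Without P30 replicate 5 the difference was 2.38 and the ages did not overlap, whereas without P30 replicate 3 or 4 it no longer passed 3-fold, at 1.30 where it was smallest. Adamtsl1, Adamtsl2, Adamtsl3 and Adamtsl5 had differences of -0.40, -0.28, -0.75 and -0.27. The Adamtsl1 value is the mean of 3 probe sets that differed by -2.32, 0.05 and 1.07. In the first of these all P30 cells lay below all P6 cells.

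Among the Mmp genes, the gelatinase gene Mmp2, whose product degrades denatured collagen and basement membrane collagen, was the most raised. It had 0.01, 1.20, 0.00, 0.70 and -0.01 in P30 cells, against -2.27, 0.06, -1.12, -2.82 and -2.37 in P6 cells. All P30 cells lay above 4 of the 5 P6 cells, and P6 replicate 2 lay within the P30 range. The mean was 4.24-fold higher at P30 (difference 2.08), and without P6 replicate 2 the difference was 2.52 and the ages did not overlap. Its 2 probe sets differed by 3.26 and 0.90, and in the first P6 replicates 1, 4 and 5 had -5.13, -4.45 and -4.93. Mmp9, the other gelatinase, had a difference of 0.04 and ranged from -0.76 to 0.25 in P30 cells and from -0.45 to 0.10 in P6 cells.

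Mmp23, a membrane-anchored enzyme with a domain that resembles potassium channel toxins, was the 1 member in which every P30 cell lay above every P6 cell, as did 1.41% of all genes. It had 1.76, 1.75, 2.01, 1.34 and 0.90 in P30 cells, against 0.56, 0.24, 0.28, -0.27 and -0.18 in P6 cells. Its mean was 1.55 ± 0.44 at P30 and 0.13 ± 0.35 at P6 (SD, n = 5 cells each), and its difference of 1.42 was the first outside the 3-fold rule on the higher side. Without P30 replicate 5, the cell with the high endothelial and neuronal markers, it was 1.59 and passed 3-fold. Its 2 probe sets differed by 2.57 and 0.27, and the ages were apart in the first alone. In that probe set P30 cells had linear ratios from 2.90 to 12.1.

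The membrane-type enzymes showed no change past 3-fold. Mmp14, the main activator of the Mmp2 proenzyme, had -0.72, -0.54, -1.63, -1.67 and -1.07 in P30 cells, against -0.49, -1.01, -0.72, -0.99 and 0.73 in P6 cells, a difference of -0.63. Mmp16 and Mmp24, membrane-type enzymes with brain expression in mice, had -0.08 and 0.48, and Mmp17, which is held by a lipid anchor, had 0.33. A probe set of Mmp16 stood at the floor in 3 P30 cells and 2 P6 cells. Mmp11, a secreted enzyme activated inside the cell by furin, had a difference of -1.13. Mmp19 had a difference of 0.89 that came with 1 cell, P30 replicate 3, at 3.48, while the other 4 P30 cells lay between -1.13 and 0.20.

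Mmp10, or stromelysin 2, was the 1 lower Mmp gene. It had -2.71, -3.27, -0.66, -1.94 and -4.76 in P30 cells, against 0.00, -2.00, 0.41, 0.15 and -0.07 in P6 cells. All P30 cells lay below 4 of the 5 P6 cells, and P6 replicate 2 lay within the P30 range. The mean was 5.15-fold lower at P30 (difference -2.36), and without P6 replicate 2 the difference was -2.79 and the ages did not overlap. Mmp3, or stromelysin 1, its close relative, had -0.29, -0.04, -0.80, 0.13 and -0.72 in P30 cells, against 0.11, 0.04, -0.12, 0.00 and -6.64 in P6 cells. The difference of 0.98 rested on P6 replicate 5 at the floor and was -0.35 without it. Mmp7, Mmp20 and Mmp1b, which lie in the same gene cluster on chromosome 9, had differences of 0.60, -0.09 and 0.55.

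The promoters of the 2 stromelysin genes are shown because the pair shares motifs and differs in its values between the ages. Mmp10 lies at chr9:7502092-7502391 and Mmp3 at chr9:7445572-7445871, both on the plus strand of GRCm38.p6 (RefSeq), with AP-1 and TATA box matches in capitals.
Mmp10: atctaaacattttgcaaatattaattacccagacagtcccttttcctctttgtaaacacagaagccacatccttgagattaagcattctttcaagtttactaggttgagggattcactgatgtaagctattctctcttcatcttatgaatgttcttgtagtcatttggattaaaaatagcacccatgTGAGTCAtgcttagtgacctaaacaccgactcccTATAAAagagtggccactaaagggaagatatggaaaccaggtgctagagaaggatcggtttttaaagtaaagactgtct
Mmp3: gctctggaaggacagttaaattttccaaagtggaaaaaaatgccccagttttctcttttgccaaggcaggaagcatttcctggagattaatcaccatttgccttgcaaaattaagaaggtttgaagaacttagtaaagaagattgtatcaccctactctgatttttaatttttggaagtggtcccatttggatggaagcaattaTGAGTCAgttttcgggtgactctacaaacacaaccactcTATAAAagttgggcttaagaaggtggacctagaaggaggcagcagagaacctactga
Both held the AP-1 letters TGAGTCA, at -63 in Mmp10 and -46 in Mmp3, and a TATA box, at -29 and -7. Of the 36 member genes with a promoter sequence, 8 held an AP-1 match, and 5 of the 8 were the cluster genes Mmp10, Mmp3, Mmp1b, Mmp7 and Mmp20, of which 1 was lower at P30. The other 3 were Adam19, Adam1b and Adam25.

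Of the inhibitors, Timp1 changed most. The Timp1 protein inhibits most Mmp enzymes and Adam10 and is induced in astroglia by injury. It had -6.64, -5.33, -6.64, -6.64 and -6.64 in P30 cells, against 0.00, 1.18, -6.62, 0.73 and -0.64 in P6 cells. Of the P30 cells 4 stood at the floor, while 4 P6 cells lay near or above a ratio of 1 and the fifth, P6 replicate 3, lay just above the floor. The mean was at least 39.7-fold lower at P30 (difference -5.31), the lowest of all members. With a floor of 0.1 in place of 0.01 the difference was -2.91, and without P6 replicate 3 it was -6.70 and the ages did not overlap. It was read from 1 probe set.

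The Timp1 promoter (chrX:20869916-20870215, plus strand, GRCm38.p6, RefSeq) is shown with its matches in capitals, as the gene with the largest difference.
Timp1: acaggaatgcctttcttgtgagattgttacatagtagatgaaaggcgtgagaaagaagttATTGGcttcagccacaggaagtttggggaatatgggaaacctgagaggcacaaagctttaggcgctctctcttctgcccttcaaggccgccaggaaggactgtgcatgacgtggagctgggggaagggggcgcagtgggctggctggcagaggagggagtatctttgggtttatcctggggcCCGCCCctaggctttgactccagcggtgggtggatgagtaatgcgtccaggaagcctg
It held a CCAAT box, on the minus strand, at -190 and a GC box, also on the minus strand, at -8. No TATA box and no AP-1 match in the letters searched lay in this window. Among the 4 lower genes with a promoter sequence (Timp1, Adamts12, Adamts1 and Mmp10), 2 held a GC box, 2 a TATA box, 1 a CCAAT box and 1 an AP-1 match.

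The other inhibitors did not pass 3-fold. Timp2, which restrains Mmp2 and also brings its proenzyme to Mmp14, had 2.08, 0.11, 2.61, 0.63 and -0.03 in P30 cells, against 0.70, 0.23, -0.51, -0.39 and 0.20 in P6 cells, a difference of 1.03. Its 6 probe sets ranged from -0.28 to 3.24 in their differences. In the highest of them P30 cells had 4.75, 2.44, 6.12, 2.39 and 2.28, against 0.89, 4.57, -2.54, -1.18 and 0.00 in P6 cells, so that P6 replicate 2 alone of the P6 cells entered the P30 range.

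Timp3, a matrix-bound inhibitor of Adam17 and of aggrecanases, had 0.55, 1.74, 0.16, -1.44 and 0.59 in P30 cells, against 0.52, 0.40, -0.83, -0.08 and 0.11 in P6 cells. The difference was 0.30, and its 4 probe sets ran from -1.45 to 1.83. Timp4 had 0.59, 0.65, 0.47, 0.41 and -0.19 in P30 cells, against -0.02, 0.12, 0.08, 0.18 and -0.83 in P6 cells, a difference of 0.48. In both ages replicate 5 was the lowest cell, and without P30 replicate 5 the ages did not overlap, at a difference of 0.62. Reck, a membrane-anchored inhibitor that is also part of the Wnt7 receptor complex, had -2.90, -1.13, -3.60, -3.02 and -4.09 in P30 cells, against -3.63, 0.00, -2.63, -4.50 and -4.28 in P6 cells. Its difference was 0.06, and P6 replicate 2 stood alone at the top.

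**Figure D3:**
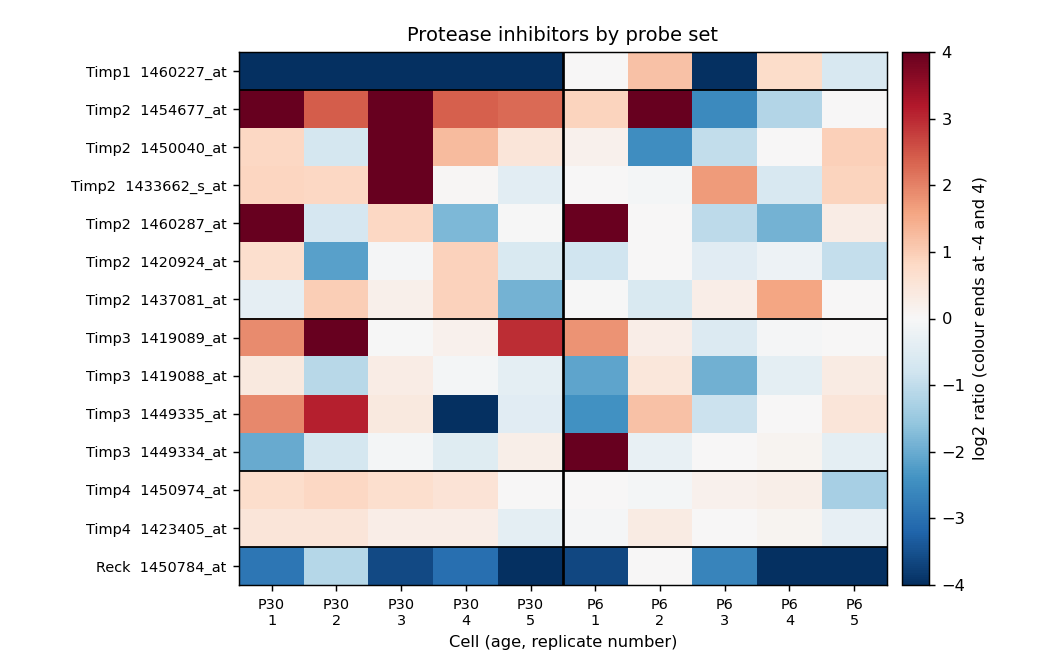
Log2 ratio (colour, ending at -4 and 4) of each complete probe set of Timp1, Timp2, Timp3, Timp4 and Reck (lines, from top to bottom), in the 5 P30 cells left of the black line and the 5 P6 cells right of it. Timp1 is low in all P30 cells and in P6 replicate 3, and the 6 probe sets of Timp2 run from a difference of 3.24 at the top to -0.28.

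No sheddase of the ADAM family passed 3-fold. Adam10, the main sheddase of Notch receptors and N-cadherin, had 0.37, 0.31, 0.98, 1.52 and -0.81 in P30 cells, against 0.31, 0.01, 0.17, 0.13 and -0.14 in P6 cells. The difference was 0.38, or 0.70 without P30 replicate 5, the lowest cell. Its 4 probe sets differed by -0.33 to 1.34. Adam17, which releases tumour necrosis factor and ligands of the EGF receptor, had 0.88, -1.51, 1.40, 1.22 and 0.49 in P30 cells, against 0.04, -0.77, 0.09, 1.63 and -1.76 in P6 cells. Its difference was 0.65, and the P30 cells lay inside the range of the P6 cells.

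Adam12 and Adam19, the meltrins, had differences of 0.20 and -0.05. The value of Adam19, known as a sheddase of neuregulin in mice, is the mean of 2 probe sets that differed by -1.80 and 1.70, the 1 member in which probe sets passed 3-fold in opposite directions. Adam8, Adam15, Adam28 and Adam33 ranged from -0.44 for Adam15 to 0.54 for Adam8. The 8 ADAM genes of these kinds had a median difference of 0.27.

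The other 14 ADAM genes are known mainly from testis, sperm or epididymis in the mouse, a grouping made after their values were seen. Their median was 0.36, 10 lay above 0 and 4 below, and none passed 3-fold. The ends were Adam24 at 1.31, Adam21 at 1.26 and Adam25 at 1.23 above, and Adam3 at -1.19 below. Without P30 replicate 5 the difference of Adam25 was 1.69, past 3-fold, and that of Adam21 was 1.49, and in both the ages did not overlap. Without P6 replicate 1 or 2 the difference of Adam24 was 1.68 or 1.70, past 3-fold. A ratio can be computed for a transcript that is at background in every cell, and these values do not show that the genes are expressed in Bergmann glia.

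**Figure D4:**
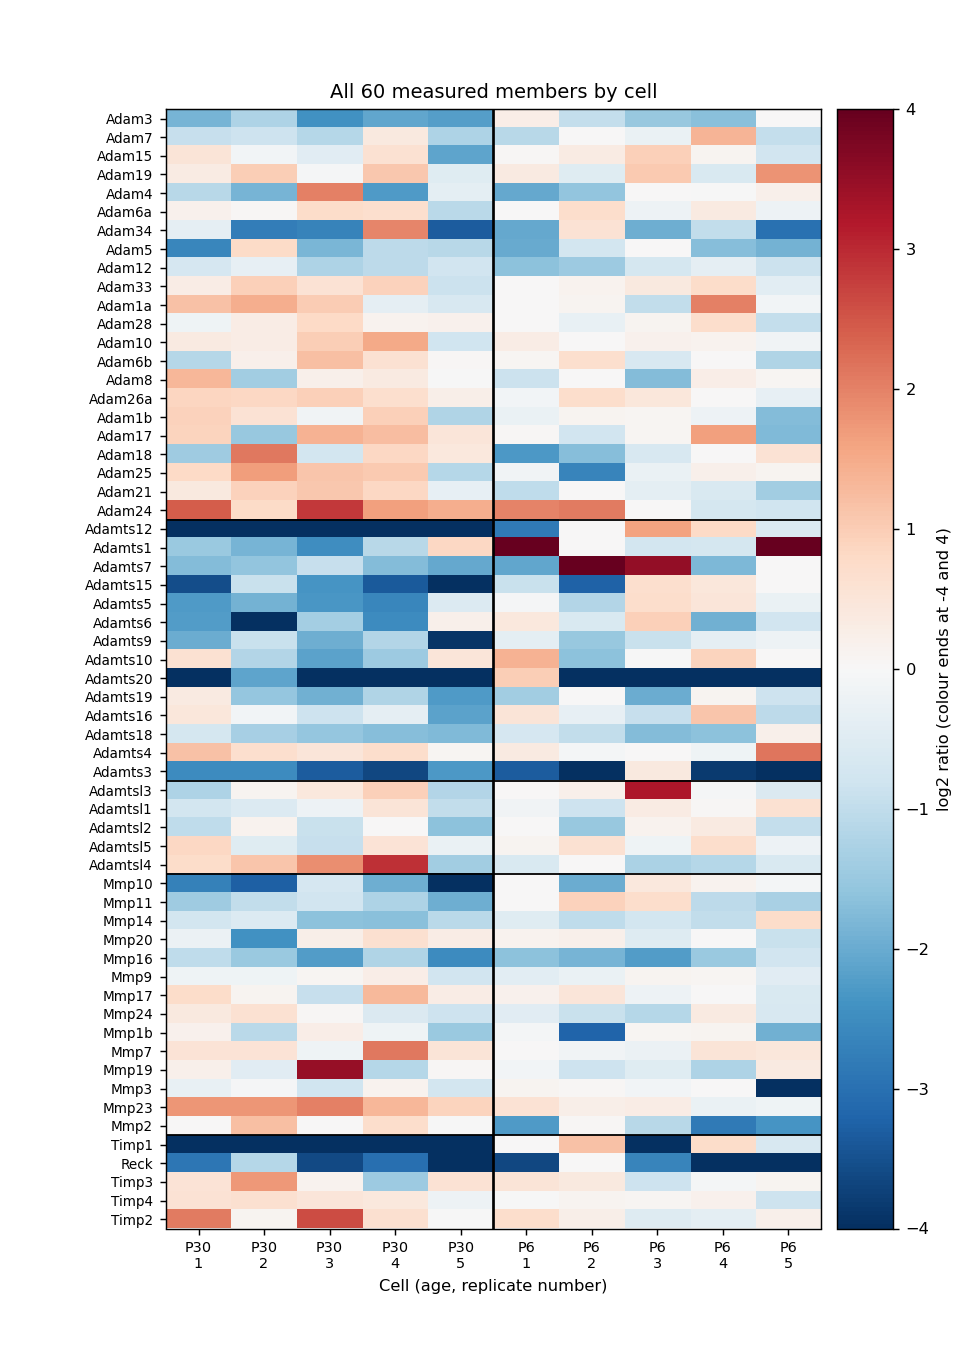
Log2 ratio (colour, ending at -4 and 4) of all 60 genes (lines), ordered by family and by difference within it, in the 5 P30 cells left of the vertical line and the 5 P6 cells right of it. Black horizontal lines part the ADAM, ADAMTS, ADAMTS-like and Mmp genes and the inhibitors; the low P30 values of the ADAMTS genes stand at the top of their block.

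The spread between cells was of the same order as many of the differences. The median SD over the members was 0.81 at P30 and 0.85 at P6, beside 0.97 and 0.92 over all genes. A cell lay more than 3 log2 units from the median of its 4 companions in age in 20 of 600 member values (3.33%), in 15 genes, beside 6.44% over all genes. Of these 20 values, 5 were in P30 cells and 15 in P6 cells, and Adamts7 alone gave 4 of them. Over all genes the share per cell was 5.58% to 7.65% in P30 cells and 5.45% to 7.04% in P6 cells. Of 27 genes read from several probe sets, 16 had probe sets with differences of opposite sign, and 33 genes had a single probe set.

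Further genes had symbols of these families but no probe set with a value in all 10 cells. Adam2, Adamts8, Mmp12, Mmp1a and Mmp8 had values in 1 to 3 P30 cells and in no P6 cell, and Adam9, Adam32 and Mmp13 had no value. Of 11 incomplete probe sets of the families, 8 had values in P30 cells alone and 3 had none. The deposited table does not say why a value is blank, so these genes enter no comparison. Mmp15 was not analysed here.

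The genes around the proteases were taken from 5 lists. Of all genes, 4.93% were higher and 9.39% lower at P30. All P30 cells lay above all P6 cells in 1.41% of all genes and below them in 2.13%. Of 15 genes that activate or traffic metalloproteases, 3 were higher at P30 and none was lower, with a list median of 0.34. Tspan15, a tetraspanin that guides Adam10, had means of 2.68 at P30 and -0.45 at P6, and all its P30 cells lay above all its P6 cells. Tspan33, of the same tetraspanin group, and Pacsin3, which binds the tail of meltrins, had differences of 2.88 and 2.61, with overlap between the ages in both. Of 9 measured genes of the plasminogen system, 1 was higher and none lower, with a list median of -0.17. It was S100a10, part of a plasminogen receptor, with means of 4.45 at P30 and -0.76 at P6 and no overlap.

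Of 10 clearance receptors and other inhibitors, 2 were higher and none was lower, with a list median of 0.32. A2m, the broad protease inhibitor alpha-2-macroglobulin, had 5.95 ± 0.44 at P30 and 0.97 ± 1.78 at P6 (SD, n = 5 cells each), a 31.6-fold higher ratio with no overlap. Sdc4, a heparan sulfate proteoglycan of the membrane, had 3.82 ± 0.57 at P30 and -0.52 ± 2.52 at P6, also with no overlap. In Gpc3, too, all P30 cells lay above all P6 cells, but its difference of 1.40 did not pass 3-fold. Of 26 matrix substrates none was higher and 2 were lower, the basement membrane genes Col4a2 and Nid1 at -2.32 and -1.86, with a list median of -0.32. Both had at least 1 cell at the floor at P6, so their folds are no bounds. The 1 matrix substrate with all P30 cells below all P6 cells was Tnc, the matrix glycoprotein tenascin-C, whose difference of -1.58 fell just short of 3-fold. A probe set of Tnc stood at the floor in 1 P30 cell, so that difference is a bound. P30 replicate 2 had -4.16, while the other P30 cells lay between -1.18 and -0.81. The lowest P6 cell was close to these, at -0.78. Of 22 measured membrane proteins shed by these enzymes, 2 were higher and none lower, with a list median of 0.10. They were Hbegf, an EGF receptor ligand, at 2.63 and Prnp, the prion protein, at 2.14, and the ages overlapped in both. The highest Hbegf value of all cells was 7.34, in P6 replicate 2, and P30 replicate 2 had -0.93.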

How the data were processed

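Amplified, oligo-dT primed cDNA of 10 single cells was hybridised to 1 array each. The deposited values are linear ratios made by the authors: RMA in GeneSpring GX, values under 0.01 raised to 0.01, each array divided by its median then every probe set by a median of the samples, although the P6 median alone was exactly 1 in 69.5% of probe sets. The genome build is not given in the sources used here. Of 45101 probe sets, 1493 with a blank were left out, and 10 values of 0 were set to 0.01. Ratios were turned to log2. Probe sets were named from the platform annotation with symbols updated to GRCm38.p6 (34958 with 1 gene, 932 with several, 9211 with none), and those with 1 gene were averaged per gene. In the complete probe sets 1.73% of P30 and 1.07% of P6 values stood at the floor. No test was run, since the labels name no animal, and the number of arrays limits the precision. Members, gene lists and named genes (those past 3-fold or without overlap, all inhibitors, proteases with known roles in brain, and leading genes of each pathway list) were chosen with earlier results of these data known, and others named were chosen after their values were seen. The steps were tested on simulated data. Python 3.11.15, NumPy 2.4.6, pandas 2.3.3 and Matplotlib 3.10.9 were used. Alternatives covered scaling, floor, probe sets, averages, size rule and each cell left out.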

Additional observations from a re-analysis of the deposited data

Results flagged for a closer look

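In 9 of 56 groups of 5 cells, 1 group for each of 28 named members at each age, the highest or lowest cell stood apart by Dixon's criterion (gap over range above 0.71). Chance marks about 1 in 20 groups of normally spread values. That rate does not hold where 4 cells are tied at the floor, as for Timp1 at P30 and Adamts20 at P6, since any cell off the floor is then marked. Timp1 was marked at both ages, in P30 replicate 2 at -5.33, with the other P30 cells at -6.64, and in P6 replicate 3 at -6.62, with the others between -0.64 and 1.18. Adamts20 was also marked at both ages, in P30 replicate 2 at -2.12, with the other P30 cells between -6.64 and -6.22, and in P6 replicate 1 at 0.99, with the others at -6.64. Timp4 was marked in replicate 5 of both ages, at -0.19 in P30, below 0.41 to 0.65, and at -0.83 in P6, below -0.02 to 0.18. P6 replicate 5 was further marked for Adamts4 at 2.15, above -0.16 to 0.37, and for Mmp3 at -6.64, below -0.12 to 0.11. Mmp10 was marked in P6 replicate 2 at -2.00, below -0.07 to 0.41.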

How the results depend on the processing

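No paired analysis was possible because the results come from no test and the shared replicate numbers of P30 and P6 cells only name them. No called difference changed sign under any alternative. Among named members without a call, the differences of Adamts20, Mmp16, Adam19, Mmp9, Reck, Timp3 and Mmp3 changed sign when 1 cell was left out. Median scaling of the arrays moved the median of all genes to 0.11 and scaling to the hybridisation spikes moved it to -0.33, beside -0.05. Members with all P30 cells above all P6 cells numbered 1, but 4 under median scaling, 2 with spikes and 6 without both cells numbered 5, and those with all P30 cells below numbered 1, but 2 with spikes and 3 without both cells. This last alternative was added after seeing the data. The share of all genes without overlap is not given for any alternative. Members over 3-fold higher numbered 2, but 1 with spikes. Those lower numbered 8, but 9 with spikes, 6 with a floor of 0.1 and 5 without genes that touched the floor. The shares of all genes moved too. With spikes 3.37% of all genes were higher and 12.97% lower, beside 4.93% and 9.39% in the main setting. With a floor of 0.1, 6.55% of all genes were lower. Without genes that touched the floor it was 6.60%, and 53 members were left. At 2-fold, 8 members were higher and 11 lower, beside 11.7% and 18.2% of all genes. The ADAMTS median was -1.36 and the Mmp median 0.13 with spikes. No ADAM gene passed 3-fold, but 1 did by medians over cells, 1 without both cells numbered 5, and 5 passed 2-fold. The difference of Timp1 was -2.91 with a floor of 0.1, and that of Adamts7 was -5.17 by arithmetic means. Leaving out each cell in turn gave 1 to 4 higher members (4 without P30 replicate 5, 1 without P30 replicate 3 or 4), 7 to 8 lower, 1 to 5 apart above (5 without P30 replicate 5), 1 to 4 apart below (4 without P6 replicate 2), 5 to 6 lower ADAMTS genes and 0 to 1 ADAM genes past 3-fold (Adam25 or Adam24). Of all genes 5.10% to 5.66% were then higher and 9.18% to 10.7% lower. Medians then ran from -0.01 to 0.20 over members, -1.41 to -0.91 for ADAMTS, 0.24 to 0.52 for ADAM, -0.56 to -0.15 for ADAMTS-like, 0.15 to 0.52 for Mmp and -0.06 to 0.53 for inhibitors. All 10 calls held under median scaling. Adamtsl4 lost its call with spikes, Adamts5 and Adamts6 with a floor of 0.1, Adamts5 by medians over probe sets, Adamts1 by medians over cells, and Adamts6 by arithmetic means and without P30 replicate 2 or P6 replicate 3. The cause was not tested.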

Other observations

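Neighbouring genes of these families did not all move alike (gene order from RefSeq, GRCm38.p6). Adamts1 and Adamts5, next to each other on chromosome 16, both passed 3-fold, with differences of -2.77 and -1.86. On chromosome 8, Adam24 and Adam25 lay side by side with 1.31 and 1.23, while Adam18, Adam3 and Adam5, also neighbours, had 1.06, -1.19 and 0.11. None of the 10 called genes had a probe set of the kinds removed as less specific. Removing those probe sets could therefore not change a call.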
